A study of Homo sapiens with 23 samples.

Results

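Calnexin and 9 other genes of protein folding in the endoplasmic reticulum (ER) were followed by RNA-sequencing (RNA-seq) in A549 cells, an established human lung adenocarcinoma line, after depletion of THUMPD3, an enzyme that places m2G in tRNA. The 10 genes, of 61806 genes listed in the first count table, are CANX, CALR, UGGT1, HSPA5, HSP90B1, PDIA3, PDIA4, PDIA6, DNAJB9 and SDF2L1. They were taken by name as ER chaperones and folding enzymes, and the set was also selected on a measured value, the strong fall of CANX with 1 shRNA, so the levels and fold changes of CANX are described here without a test. All 10 passed the filter on low counts in every comparison, and the other 9 were tested within the whole table.

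Proteins that enter the ER fold with the help of 3 overlapping systems. Calnexin (CANX) in the membrane and calreticulin (CALR) in the lumen are lectins that hold glycoproteins carrying a single terminal glucose, and UGGT1 puts that glucose back on proteins that are not yet folded. BiP (HSPA5) and GRP94 (HSP90B1), the ER members of the HSP70 and HSP90 families, bind unfolded and partly folded chains, and protein disulphide isomerases form and rearrange disulphide bonds. Many of these genes are transcribed more when unfolded proteins accumulate, through the ER sensors IRE1, PERK and ATF6.

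Total RNA depleted of rRNA was sequenced with a directional protocol in 23 libraries, all of A549 cells. The siRNA siD3 #3 was compared with a control siRNA (siControl), with cells collected on the fifth day, and the shRNAs shD3 #1 and shD3 #4 with sh1Control and sh4Control, collected on the sixth day. The shRNAs were carried by lentivirus in puromycin-selected cells and induced with doxycycline. The labels call every control wild type and do not say whether the shRNA controls received doxycycline. The study's methods set treated against untreated samples without naming the treatment there. If the shRNA controls received no doxycycline, the drug and the knockdown differ together and cannot be told apart. A second table held shD3 #1 and sh1Control again, sequenced more deeply ("deep"). Each group had 3 libraries labelled as biological replicates, except siControl, of which 2 were analysed here. Libraries of the first table held 9854294 to 22101059 counts, the deep controls 51101905 to 59974740 and the deep knockdown 27285889 to 35458367.

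THUMPD3 itself separated the groups: all of its knockdown values lay under all values of the matching control. Its mean level in cpm (counts relative to the library's total, scaled by TMM over each table) went from 60.1 ± 1.62 (SD, n = 3) in sh1Control to 30.4 ± 1.17 (n = 3) in shD3 #1, from 63.7 ± 4.10 (n = 3) in sh4Control to 19.8 ± 0.552 (n = 3) in shD3 #4, and from 68.9 ± 2.00 (n = 2) in siControl to 11.8 ± 1.01 (n = 3) in siD3 #3. In the deep table it went from 54.3 ± 1.44 to 26.9 ± 1.76 (n = 3 each). The epithelial keratins KRT8 and KRT18 were abundant in all libraries, at 984 cpm or more, while EPCAM reached only 20.4 cpm. PTPRC and CD3E of leukocytes, COL1A2 and DCN of fibroblasts and PECAM1 of endothelium were at or near 0, with at most 0.483 cpm. Of the marker lists, the summed fibroblast genes, nearly all COL1A1 in the deep table, ranged from 8.11 to 8.81 cpm in deep sh1Control. In deep shD3 #1 they ranged from 26.5 to 28.7 cpm. In the first table they had 4.15 to 5.998 cpm in sh1Control and 7.18 to 9.25 cpm in shD3 #1. The summed leukocyte genes of the deep table, nearly all CD68, went from 45.3 to 48.9 cpm to 89.7 to 97.7 cpm. The first table did not show this level, with 0.0496 to 0.0568 cpm in sh1Control and 0.195 to 0.394 cpm in shD3 #1. Why the tables differ was not tested. In bulk RNA, fewer cells with a transcript and less of it per cell cannot be told apart.

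The promoters of these genes are known for the ER stress response element (ERSE), CCAAT and CCACG with any 9 bases between them, in which NF-Y and the stress-activated factors ATF6 and XBP1 meet. RefSeq promoters on GRCh38.p14, from 250 bases before to 50 bases after the transcription start, were given for 9 of the 10 genes (all but PDIA3) and searched on both strands. An ERSE was found in 5 of the 9 (55.6%), in 3 of 73 other ER folding genes (4.11%) and in 25 of 27305 genes in all (0.0916%). As the element is known from such promoters, its share among the 9 is a description, not a test. The sites are shown because 5 of the 9 promoters hold one, and because CANX, which moved apart from the others, is among these 5. Capitals mark the ends that the element fixes, and each site is written 5′ to 3′ on the strand that reads CCAAT.
CANX: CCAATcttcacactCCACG
HSPA5: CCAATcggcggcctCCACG
HSP90B1, distal: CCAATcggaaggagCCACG
HSP90B1, proximal: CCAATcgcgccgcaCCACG
PDIA6: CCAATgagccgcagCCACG
CALR: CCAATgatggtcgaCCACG

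The CANX site lies at chr5:179698778-179698796 on the plus strand, with its first base 9, 151 and 189 bases before 3 of the 4 starts that RefSeq gives. The HSPA5 site lies at chr9:125241391-125241409, 66 bases before the start, and the PDIA6 site at chr2:10812853-10812871, 86 bases before 1 of its 2 starts, both on the gene's own strand, which is the minus strand. HSP90B1 holds a site at chr12:103930216-103930234, 194 bases before the start on its own (plus) strand, and another at chr12:103930321-103930339, 89 bases before the start on the opposite strand. The CALR site, at chr19:12938384-12938402, is 225 bases before the start and also on the opposite strand. SDF2L1 holds the related ERSE-II (ATTGG and CCACG with any 1 base between them), found in 19 genes in all (0.0696%), at chr22:21642114-21642124, 188 bases before the start on the opposite strand.
SDF2L1: ATTGGtCCACG

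DNAJB9, PDIA4 and UGGT1 held neither element in these windows. A further element, the UPRE, searched as TGACGTGG, was in none of the 9. It was in 8 of 73 other ER folding genes (11%), against 253 genes in all (0.927%). These are matches of letters within the window, not measured binding.

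In control cells the lectin chaperones had the highest mean levels of the 10. Levels per kb of the canonical GENCODE transcript over the 8 control libraries of the first table were 482 ± 29.8 cpm per kb for CALR and 435 ± 35.4 for CANX (SD, n = 8). HSP90B1 followed at 323 ± 44.3, PDIA6 at 216 ± 14.2 and PDIA4 at 159 ± 15.1 cpm per kb. PDIA3 had 60.2 ± 5.44, HSPA5 41.1 ± 7.09, SDF2L1 20.2 ± 1.68, UGGT1 19.1 ± 1.45 and DNAJB9 8.56 ± 0.917. CALR and CANX had overlapping ranges, from 445 to 530 and from 367 to 479 cpm per kb. HSP90B1, from 248 to 379 cpm per kb, overlapped CANX, and SDF2L1 overlapped UGGT1. The deep controls gave the same order (n = 3) except for HSPA5, which came after PDIA6 at 171 ± 8.25 cpm per kb.

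**Figure D1:**
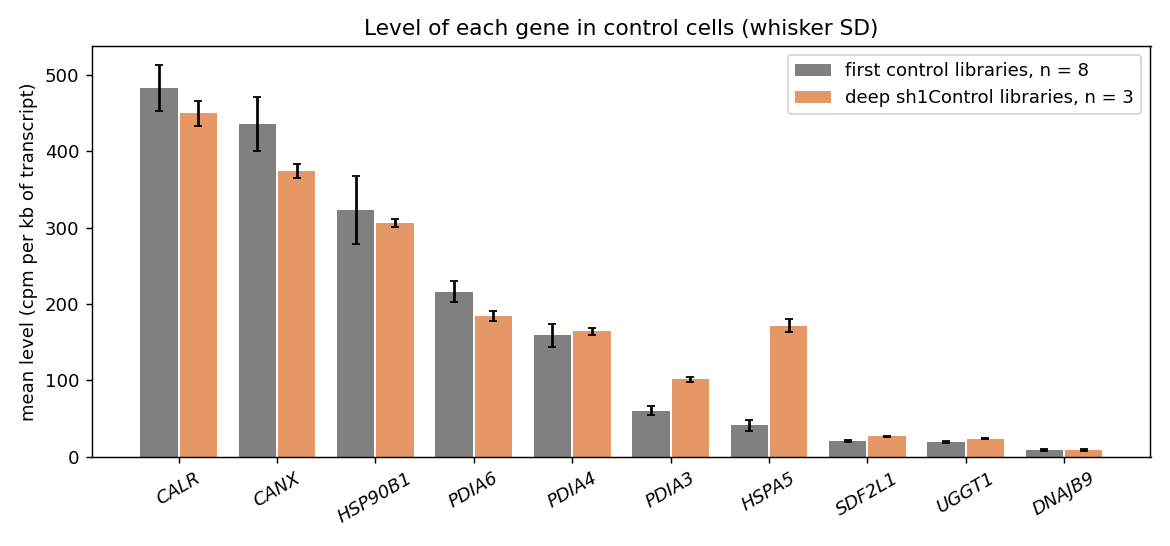
Mean level of each gene in control cells, in cpm per kb of canonical transcript, for the 8 control libraries of the first table and the 3 deep sh1Control libraries, with whiskers for the SD. CALR (482 and 450) and CANX (435 and 374) are the tallest pairs, and HSPA5 is the gene whose bars differ most between the tables (41.1 and 171).

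CANX transcripts fell to 18.9% of control with shD3 #1. CANX (chr5:179678628-179731641, plus strand, 15 exons in the canonical transcript) had 2356, 2319 and 2166 cpm in sh1Control and 434, 425 and 417 cpm in shD3 #1, a log2 fold change of -2.40 (SE 0.06), or 5.29-fold lower, and rank 83 from the lowest of 16456 genes. In the deep libraries it had 1870, 1854 and 1787 cpm in control and 448, 468 and 460 cpm with shD3 #1, a log2 fold change of -2.001 (SE 0.05), or 4.00-fold lower. No knockdown library came near a control library in either table, and the replicates of a group lay close together.

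The other knockdowns moved CANX far less. With shD3 #4 it had 1834, 1889 and 1763 cpm against 2102, 2048 and 2224 cpm in sh4Control, a log2 fold change of -0.20 (SE 0.07). The THUMPD3 transcript had a log2 fold change of -1.67 with shD3 #4 and -0.97 with shD3 #1. How the change of CANX relates to that of THUMPD3 was not tested. With siD3 #3 CANX had 1569, 1569 and 1548 cpm against 2085 and 1805 cpm in siControl, a log2 fold change of -0.31 (SE 0.11). Every knockdown library was below every library of its own control here too, with changes of 1.15-fold and 1.24-fold. By group mean the order was sh1Control (2280 ± 101), sh4Control (2125 ± 89.9), siControl (1945 ± 198), shD3 #4 (1829 ± 63.4), siD3 #3 (1562 ± 12.03) and shD3 #1 (425 ± 8.41). Neighbouring groups in that order overlapped down to shD3 #4, and the last 3 groups did not overlap one another.

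**Figure D2:**
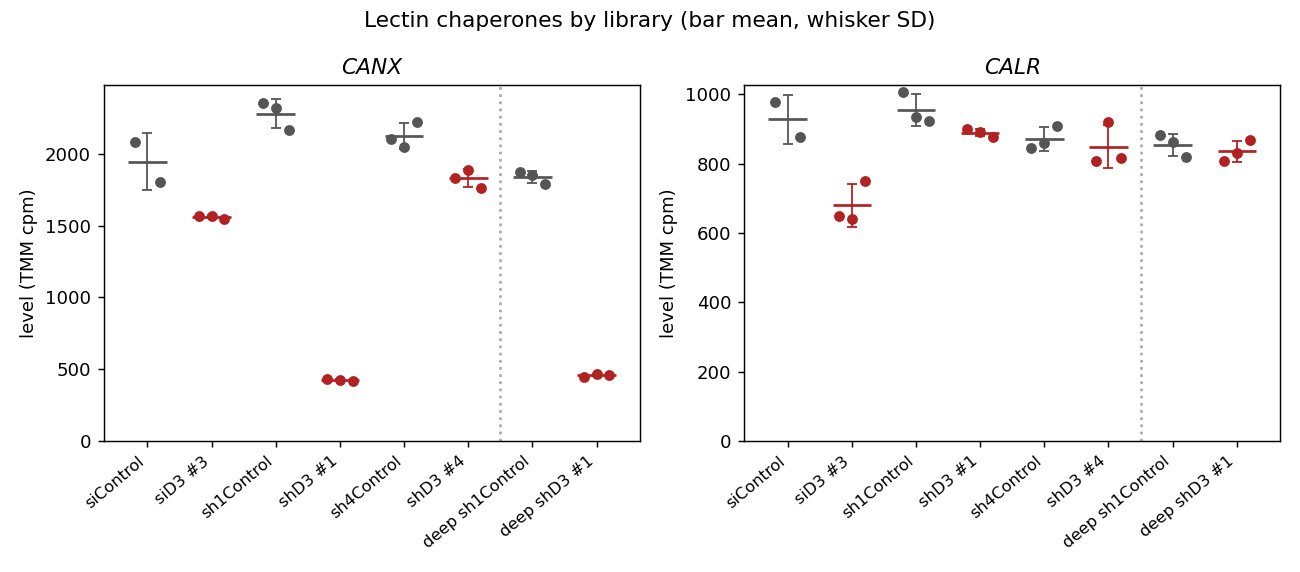
Level of CANX (left) and CALR (right) in TMM-scaled cpm in each library, with a bar for the group mean and a whisker for the SD; grey points are controls, red points are knockdowns, and libraries right of the dotted line are the deep ones, scaled separately. CANX sits at 417 to 434 cpm in shD3 #1 and 448 to 468 cpm in deep shD3 #1, and at 1548 cpm or more in all other groups, while CALR stays between 640 and 1008 cpm.

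Calreticulin, the soluble partner of calnexin with the same sugar specificity, did not pass the test with either shRNA. CALR had 1008, 935 and 923 cpm in sh1Control and 900, 892 and 878 cpm in shD3 #1 (log2 fold change -0.08, SE 0.06, edgeR adjusted p = 0.217), and 882, 862 and 820 against 807, 831 and 869 cpm in the deep libraries (-0.03, SE 0.05, edgeR adjusted p = 0.572). It had 845, 860 and 910 cpm in sh4Control and 809, 921 and 817 cpm in shD3 #4 (-0.02, edgeR adjusted p = 0.829). The largest difference was in siD3 #3, with 648, 640 and 751 cpm against 979 and 877 cpm in siControl (log2 fold change -0.45, SE 0.12, edgeR adjusted p = 0.0218), where the groups did not overlap but the change was under 1.5-fold. A gene is called changed here at an adjusted p under 0.05 together with a change of at least 1.5-fold.

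UGGT1, which keeps unfolded glycoproteins in the calnexin and calreticulin cycle, was called in no comparison. It had 224, 227 and 215 cpm in sh1Control and 222, 224 and 227 cpm in shD3 #1, 188, 187 and 205 cpm in sh4Control and 227, 222 and 220 cpm in shD3 #4, and 206 and 193 cpm in siControl and 158, 148 and 162 cpm in siD3 #3. Its log2 fold changes were 0.03 (edgeR adjusted p = 0.633), 0.22 (edgeR adjusted p = 0.00623) and -0.35 (edgeR adjusted p = 0.0187), all under 1.5-fold. Of these, the groups overlapped with shD3 #1, and shD3 #4 and the siRNA differed in sign. Deep sequencing gave 259, 254 and 251 against 274, 266 and 281 cpm.

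The share of CANX in the summed cpm of all 10 genes therefore went from 38.3 to 38.7% in sh1Control to 12.6 to 13.2% in shD3 #1, and from 31.7 to 32.0% to 10.5 to 11.0% in the deep libraries. It was 39.1 to 40.3% in sh4Control and 35.2 to 36.8% in shD3 #4. In siControl it was 37.8 to 38.2% and in siD3 #3 it was 39.1 to 43.1%, since the other 9 genes together went from 2969 to 3368 cpm down to 2074 to 2416 cpm. In shD3 #1 their sum was 2743 to 2952 cpm against 3484 to 3764 cpm in sh1Control, but in the deep libraries the sums overlapped (3754 to 3908 against 3803 to 4022 cpm).

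Of the 9 other genes, shD3 #1 raised 1 (DNAJB9) and lowered 2 (HSP90B1 and PDIA4), so that 33.3% were called where 29.1% of all genes tested were, 14.5% higher and 14.6% lower. With shD3 #4 1 of 9 was called, DNAJB9 again, against 12.5% of all genes, 8.00% higher. With siD3 #3 1 was higher (DNAJB9) and 4 were lower (HSP90B1, PDIA4, PDIA6 and SDF2L1), against 22.0% of all genes called, 12.5% higher and 9.42% lower. DNAJB9 was the 1 gene called in the deep table, against 29.1% of all genes, 15.0% higher. By the adjusted p alone, 4, 4, 7 and 6 of the 9 passed in the same order, against 56.5%, 40.8%, 33.0% and 62.6% of all genes. The median log2 fold change of the 9 was -0.09, -0.01, -0.45 and 0.07, with medians of all genes tested of -0.01, 0.01, 0.03 and -0.02.

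**Figure D3:**
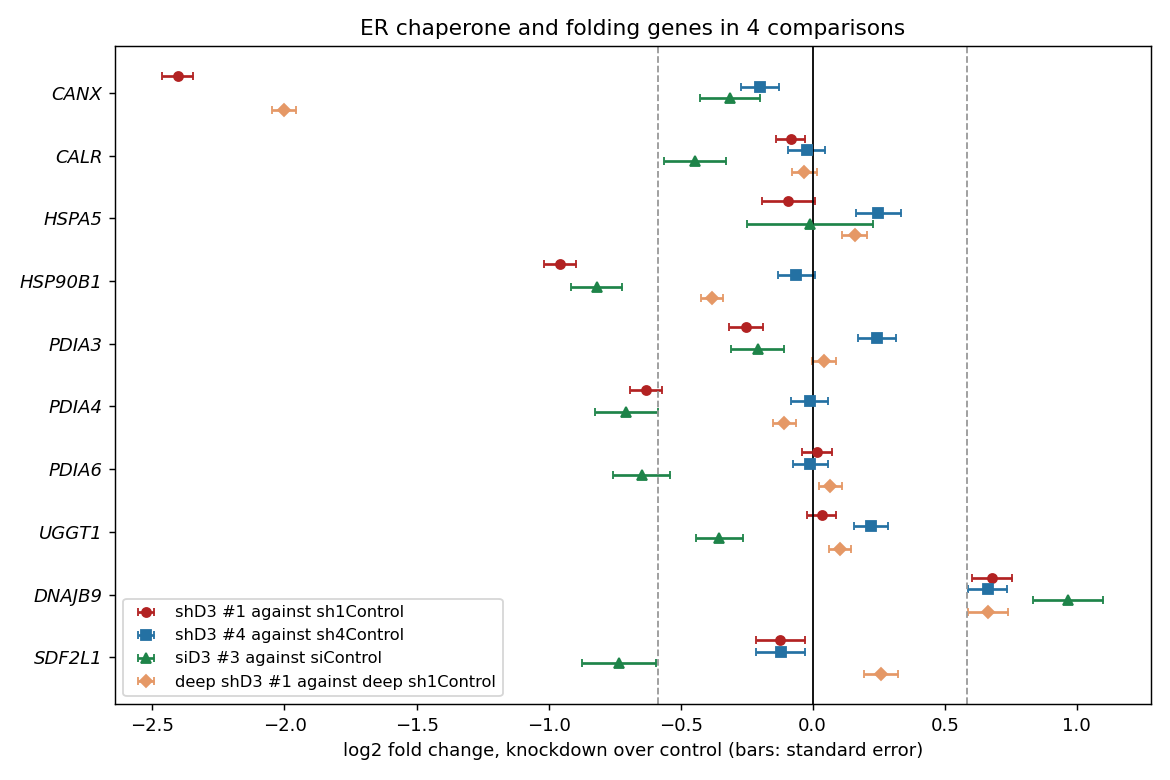
Log2 fold change of knockdown over control for the 10 genes in the 4 comparisons, with bars for the standard error and dashed lines at 1.5-fold. CANX stands at -2.40 and -2.001 with shD3 #1 and at -0.20 and -0.31 with shD3 #4 and siD3 #3, DNAJB9 lies right of 1.5-fold in all 4 comparisons (0.66 to 0.97), and HSP90B1 and PDIA4 lie left of it with shD3 #1 and siD3 #3 in the first table.

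GRP94, which assists the folding of integrins and Toll-like receptors among others, fell with shD3 #1 and siD3 #3. HSP90B1 had 1054, 1028 and 940 cpm in sh1Control and 518, 527 and 492 cpm in shD3 #1 (log2 fold change -0.96, SE 0.06, edgeR adjusted p = 2.23e-09). It had 766 and 690 cpm in siControl and 407, 408 and 422 cpm in siD3 #3 (log2 fold change -0.82, SE 0.10, edgeR adjusted p = 6.74e-04). With shD3 #4 the groups overlapped, at 850, 907 and 812 cpm against 876, 889 and 944 cpm in sh4Control (-0.06, SE 0.07, edgeR adjusted p = 0.510). The deep table gave 655, 638 and 669 cpm against 869, 847 and 840 cpm, again with no overlap, but a log2 fold change of -0.38 (SE 0.04, edgeR adjusted p = 2.25e-06), under 1.5-fold.

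BiP, the main HSP70 of the ER and the usual readout of ER stress, was called in no comparison. HSPA5 had 173, 186 and 171 cpm in sh1Control and 172, 189 and 128 cpm in shD3 #1 (log2 fold change -0.09, SE 0.10, edgeR adjusted p = 0.463). In siControl it had 203 and 141 cpm and in siD3 #3 127, 164 and 222 cpm (-0.01, SE 0.24, edgeR adjusted p = 0.980). The groups overlapped in both, and the siRNA values spanned the whole range of the controls. With shD3 #4 it had 148, 178 and 162 cpm against 115, 149 and 151 cpm (0.25, SE 0.09, edgeR adjusted p = 0.0206), and in the deep libraries 737, 771 and 742 cpm against 680, 699 and 636 cpm (0.16, SE 0.05, edgeR adjusted p = 0.00885), both under 1.5-fold.

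Among the isomerases PDIA3, PDIA4 and PDIA6, PDIA4, an enzyme with 3 thioredoxin-like active sites, was the 1 called with an shRNA. It had 484, 490 and 463 cpm in sh1Control and 307, 325 and 284 cpm in shD3 #1 (log2 fold change -0.63, SE 0.06, edgeR adjusted p = 3.10e-07), and 447 and 382 cpm in siControl and 231, 248 and 281 cpm in siD3 #3 (-0.71, SE 0.12, edgeR adjusted p = 0.00354). The shD3 #1 change is close to the limit of 1.5-fold and fell short of it, at -0.58, without shD3 #1 replicate 3, the library of lowest depth. With shD3 #4 the 395, 433 and 407 cpm lay within the 392 to 459 cpm of sh4Control (-0.01, edgeR adjusted p = 0.922). The deep table gave 417, 410 and 436 cpm against 467, 449 and 444 cpm (-0.11, SE 0.04, edgeR adjusted p = 0.0413).

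PDIA6, which acts with BiP on disulphide-bonded clients, fell with the siRNA alone among the 4 comparisons. It had 509 and 463 cpm in siControl and 293, 294 and 342 cpm in siD3 #3 (log2 fold change -0.65, SE 0.11, edgeR adjusted p = 0.00355). The value is -0.58, short of 1.5-fold, without siControl replicate 1. With the shRNAs its levels overlapped those of the controls in all 3 comparisons, where the log2 values were 0.02 for shD3 #1, -0.01 for shD3 #4 and 0.07 for the deep libraries.

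PDIA3 (ERp57) is the isomerase that works bound to calnexin and calreticulin. It was called in no comparison, with 252, 236 and 237 cpm in sh1Control against 202, 213 and 184 cpm in shD3 #1 (log2 fold change -0.25, SE 0.06, edgeR adjusted p = 0.00305). With shD3 #4 it had 229, 281 and 238 cpm against 201, 212 and 225 cpm (0.24, SE 0.07, edgeR adjusted p = 0.00936). The shRNAs thus gave values of opposite sign, each with no overlap and under 1.5-fold. In siD3 #3 it had 164, 180 and 185 cpm against 219 and 191 cpm (-0.21, edgeR adjusted p = 0.153), and in the deep libraries 379, 371 and 400 cpm against 388, 363 and 366 cpm (0.04, edgeR adjusted p = 0.442).

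DNAJB9 (ERdj4), a J-domain partner of BiP that also holds IRE1 inactive, was the 1 gene of the 9 called in all 4 comparisons. It had 21.6, 23.3 and 22.9 cpm in sh1Control and 34.9, 38.4 and 33.2 cpm in shD3 #1 (log2 fold change 0.68, SE 0.07, edgeR adjusted p = 1.19e-06), and 19.4, 20.01 and 19.3 cpm in sh4Control and 30.5, 32.1 and 29.4 cpm in shD3 #4 (0.66, SE 0.07, edgeR adjusted p = 7.27e-08). In siControl it had 21.9 and 16.6 cpm and in siD3 #3 36.1, 37.8 and 39.3 cpm (0.97, SE 0.13, edgeR adjusted p = 0.00142). Deep sequencing gave 22.6, 18.5 and 21.0 cpm in control and 31.6, 35.9 and 31.2 cpm with shD3 #1 (0.66, SE 0.08, edgeR adjusted p = 2.76e-06). All 12 knockdown libraries were above all 11 control libraries of their tables, by 1.58-fold to 1.96-fold in the fits. The deep comparison repeats shD3 #1 against sh1Control, so the 4 comparisons are not 4 separate knockdowns. The share of all genes called in all 4 was not computed. It is the lowest of the 10 genes per kb, with 234 to 1328 counts in a library.

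SDF2L1, which works with BiP and J-domain proteins, fell with the siRNA. It had 17.8 and 14.9 cpm in siControl and 9.71, 9.25 and 10.5 cpm in siD3 #3 (log2 fold change -0.73, SE 0.14, edgeR adjusted p = 0.00604). Without siControl replicate 1 the value is -0.60 and the adjusted p no longer passes. With the shRNAs the values were -0.12 in both (edgeR adjusted p = 0.281 and 0.308), and in the deep libraries 24.4, 28.5 and 25.1 cpm against 22.2, 21.9 and 21.1 cpm (0.26, SE 0.06, edgeR adjusted p = 0.00294).

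**Figure D4:**
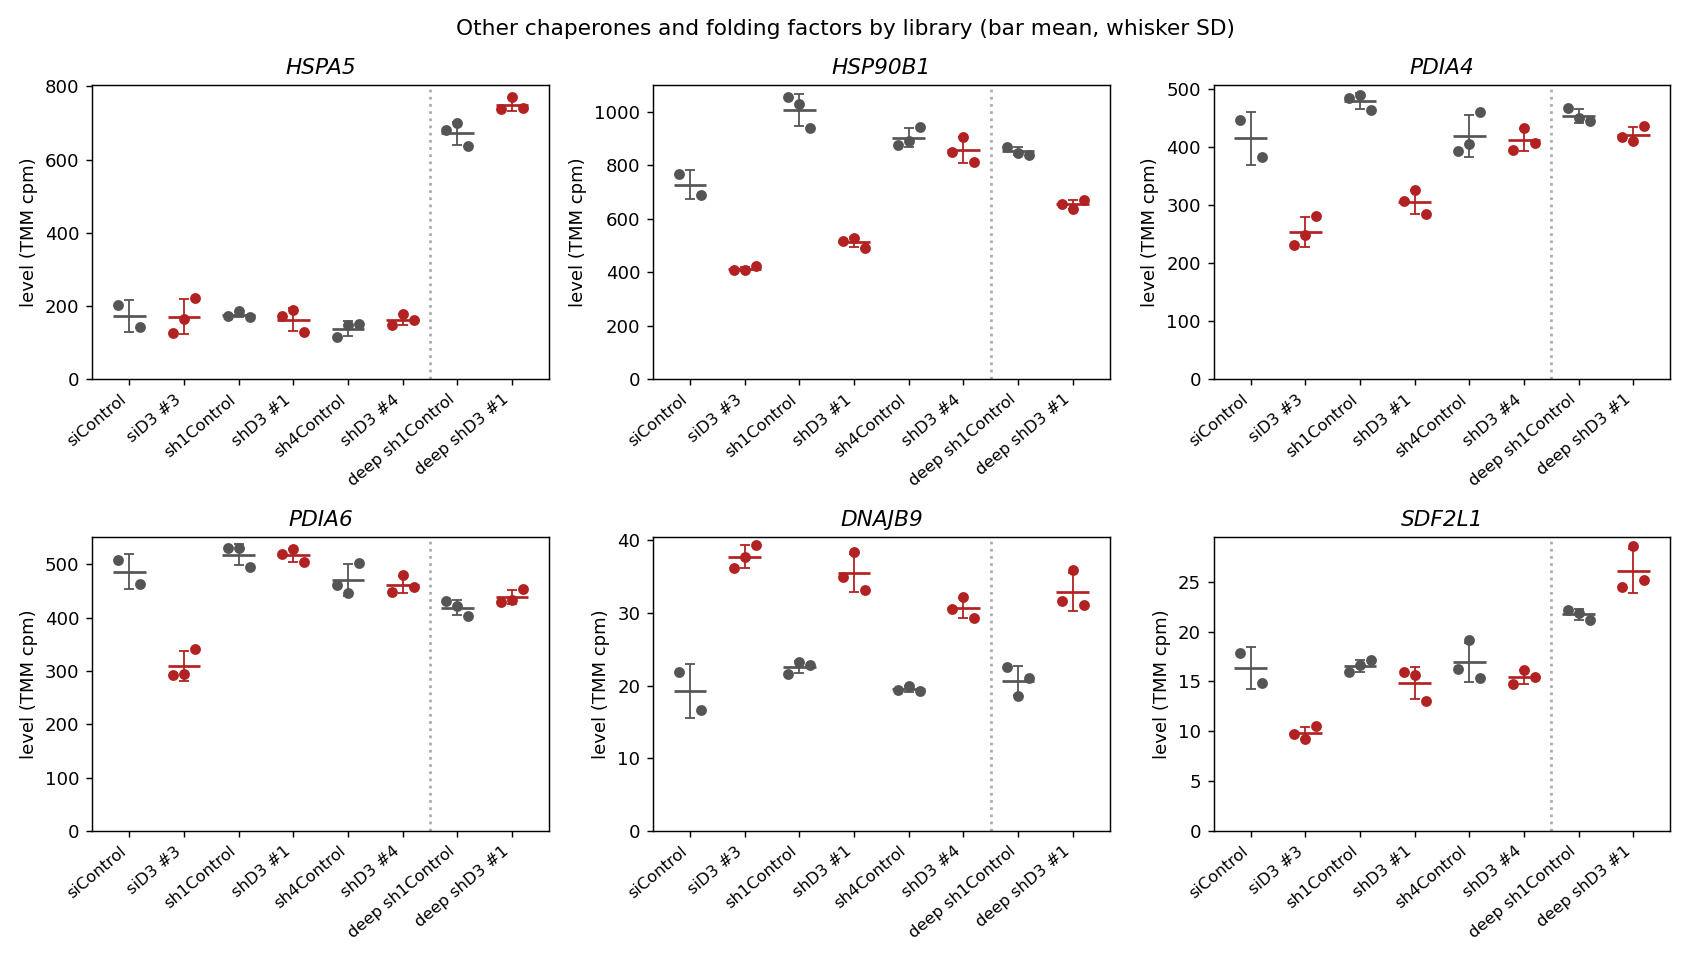
Level in TMM-scaled cpm of HSPA5, HSP90B1, PDIA4, PDIA6, DNAJB9 and SDF2L1 in each library, with a bar for the group mean and a whisker for the SD; grey points are controls, red points are knockdowns, and the deep libraries lie right of the dotted line. DNAJB9 is higher in each knockdown than in its control (for example 36.1 to 39.3 against 16.6 to 21.9 cpm with the siRNA). PDIA6 and SDF2L1 are called lower in siD3 #3 alone. HSPA5 lies at 115 to 222 cpm in the first table and 636 to 771 cpm in the deep one.

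The effects of the knockdowns were then set against each other in 1 model of the 17 libraries of the first table. Between the shRNAs, HSP90B1 and PDIA4 differed, with a log2 fold change lower in shD3 #1 than in shD3 #4 by -0.90 (SE 0.10, edgeR adjusted p = 4.31e-07) and -0.62 (SE 0.12, edgeR adjusted p = 2.92e-04). These are 2 of the 9 genes, against 25.9% of all genes called for this difference and 13.8% called lower. PDIA3 differed by -0.50 (SE 0.12, edgeR adjusted p = 0.00197), under 1.5-fold, so that 3 of 9 passed the adjusted p alone, against 39.4% of all genes. DNAJB9 differed by 0.01 (SE 0.12, edgeR adjusted p = 0.954). The PDIA4 difference was short of 1.5-fold, at -0.57 to -0.58, without any 1 of shD3 #1 replicate 3, sh4Control replicate 1 and shD3 #4 replicate 2.

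Between the siRNA and the mean of the shRNAs, PDIA6 and SDF2L1 differed, by -0.64 (SE 0.10, edgeR adjusted p = 3.60e-05) and -0.60 (SE 0.14, edgeR adjusted p = 0.00256), which is 2 of 9 against 16.5% of all genes called and 7.12% called lower. SDF2L1 just passes 1.5-fold, and without siControl replicate 1 its difference is -0.48. UGGT1 (-0.47), CALR (-0.38), PDIA4 (-0.37) and HSP90B1 (-0.29) passed the adjusted p alone, which makes 6 of 9 by that rule, against 29.1% of all genes. The way of delivery, the doxycycline induction of the shRNAs and the day of collection differ together here and cannot be told apart.

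Over the 17 libraries of the first table CALR, UGGT1, HSP90B1, PDIA3, PDIA4, PDIA6 and SDF2L1 varied together, with a Pearson r on log2 cpm from 0.59 (HSP90B1 and UGGT1) to 0.97 (HSP90B1 and PDIA4). DNAJB9 ran against HSP90B1 (-0.74) and PDIA4 (-0.72). HSPA5 had an r of at most 0.36 with any of the other 8. With CANX, HSP90B1 had an r of 0.60, PDIA4 0.55 and DNAJB9 -0.58, and CALR and HSPA5 0.03 and 0.01. These correlations describe libraries that share their groups and their depth, and carry no test.

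Among 7059 genes with a mean of at least 20 cpm, those whose log2 level was most like that of CANX over these 17 libraries were MAN2A1 (r = 0.985), a mannosidase of the Golgi, ACSL3 (0.985), a fatty acid-activating enzyme of the ER and lipid droplets, NBAS (0.984), which acts in transport from Golgi to ER, VOPP1 (0.981) and KIF5B (0.981), a kinesin heavy chain. Their log2 fold changes with shD3 #1 were -1.49, -1.14, -0.98, -1.40 and -1.11, and with shD3 #4 they lay between -0.22 and 0.09. Over these libraries CANX varied mainly by its fall with shD3 #1. Low values there and small ones with shD3 #4 therefore follow from how these genes were picked. In the deep libraries, which the likeness did not use, they were -1.05, -0.63, -0.57, -0.83 and -0.68. On levels centred on the controls of each comparison the first 5 were MINPP1, ACLY, GLE1, MAN2A1 and PAK2, of which 1 is shared. None of the other folding genes compared was among either 5, and SDF2L1, at a mean of 14.9 cpm, was not compared.

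Of the tested protein-coding genes beside CANX on chromosome 5, HNRNPH1, a splicing regulator, was lower with shD3 #1 (log2 fold change -0.60, SE 0.05, edgeR adjusted p = 1.22e-07). RUFY1 stood at -0.44 (edgeR adjusted p = 2.53e-05), under 1.5-fold. On the other side MAML1 had -0.06 and MGAT4B 0.19. CBY3, which overlaps CANX on the opposite strand, was not among the genes tested.

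A wider list of 81 other ER folding genes in 7 roles gave the setting, of which 79 passed the filter in the first table and 78 in the deep one. With shD3 #1, 5 were higher and 11 lower (20.3% called, against 29.1% of all genes), with shD3 #4 2 higher and 0 lower (2.53%, against 12.5%), with siD3 #3 4 higher and 6 lower (12.7%, against 22.0%), and in deep shD3 #1 7 higher and 8 lower (19.2%, against 29.1%). For the 0 lower with shD3 #4 in edgeR, 4 passed the adjusted p alone and 5 an unadjusted p under 0.05, and DESeq2 also called 0. Medians of the list were -0.03, 0.10, -0.07 and 0.00. In all, 30 of the 79 were called in at least 1 comparison and none in all 4. Of the 16 called with shD3 #1 in the first table and the 15 called in the deep one, 8 were shared, in the same direction, which is 50% and 53.3% of the 2 lists. The matching shares of all genes, in at least 1 comparison, in all 4 or in both tables, were not computed. Without those shares, these last counts cannot show whether anything is particular to ER folding genes.

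**Figure D5:**
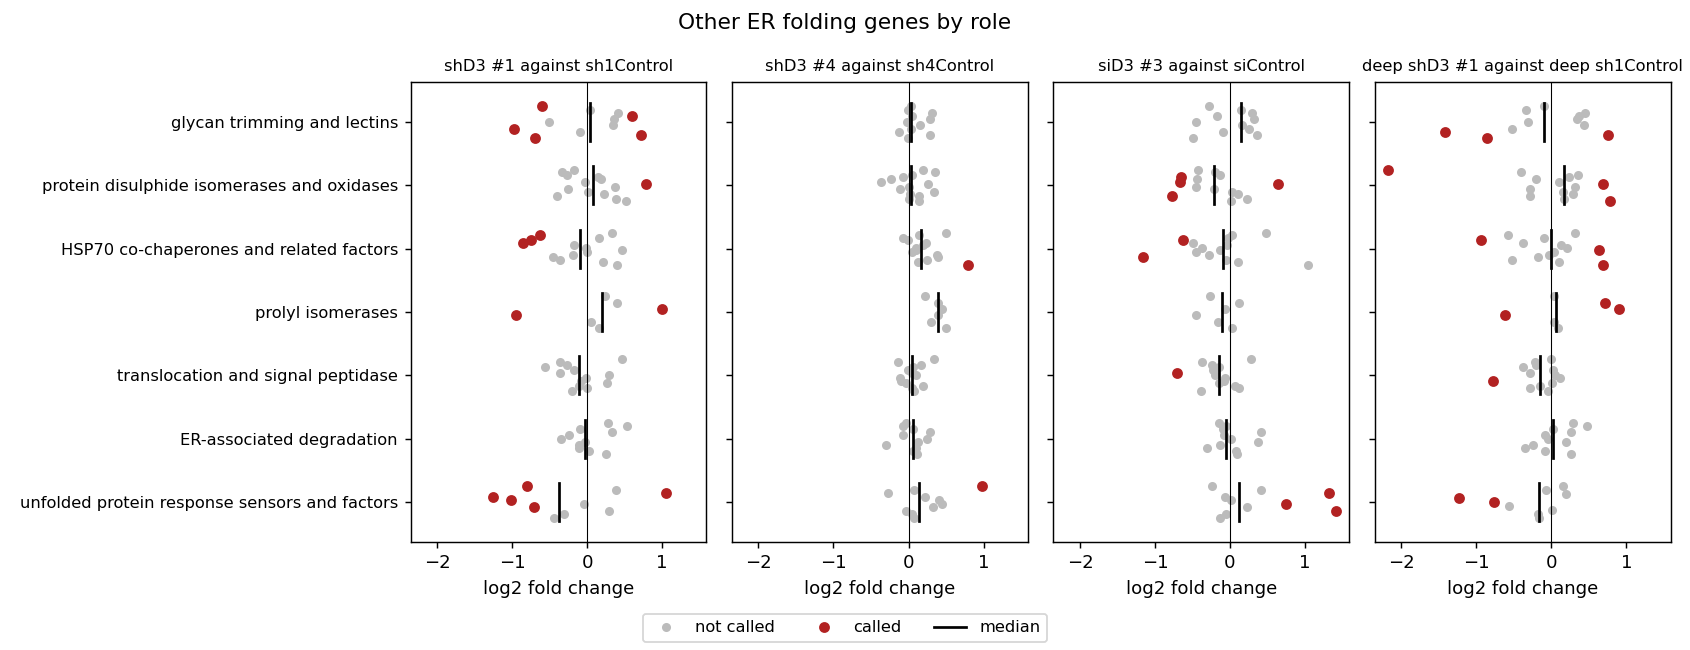
Log2 fold change of the other ER folding genes by role (rows) in the 4 comparisons (panels), with red points for genes called changed, grey points for the others and black bars for the median of each role. The panel of shD3 #4 holds 2 red points, both to the right, while the others hold red points on both sides of 0 (16, 10 and 15 in all).

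Glycan-trimming enzymes and ER lectins, which decide how long a glycoprotein stays with calnexin, gave 2 higher and 3 lower calls of 11 with shD3 #1 in the first table (45.5%, against 29.1% of all genes, 14.5% higher and 14.6% lower). With the same shRNA in the deep libraries 1 was higher and 2 lower (27.3%, against 29.1% of all genes). With shD3 #4 and siD3 #3, 0 were called, against 12.5% and 22.0% of all genes. EDEM1 and EDEM3, which trim mannose on proteins bound for degradation, went in opposite directions, with EDEM1 from 66.7 ± 5.25 to 108 ± 22.5 cpm (log2 fold change 0.72, edgeR adjusted p = 4.77e-05) and EDEM3 from 102 ± 4.09 to 51.1 ± 1.85 cpm (-0.97, edgeR adjusted p = 3.90e-09, SD, n = 3). In the deep libraries EDEM1 went from 156 ± 1.94 to 264 ± 6.58 cpm (0.75, edgeR adjusted p = 7.65e-10), and EDEM3 had -0.52 (edgeR adjusted p = 1.42e-06), under 1.5-fold. CLGN, the calmegin homologue of calnexin, was called lower with shD3 #1 in both tables; it was named after its values were seen. EDEM2 was also called lower in the deep libraries (-1.42, SE 0.49, edgeR adjusted p = 0.0198), on 2 to 61 counts a library and with groups that overlapped.

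Of the 14 other disulphide isomerases and oxidases, QSOX1, an oxidase that introduces disulphide bonds, was called higher in 3 comparisons. It went from 51.6 ± 1.34 to 87.4 ± 7.22 cpm with shD3 #1 (log2 fold change 0.78, edgeR adjusted p = 1.24e-07) and from 46.1 ± 8.26 (n = 2) to 71.9 ± 5.47 cpm (n = 3) with siD3 #3 (0.64, edgeR adjusted p = 0.00742), and stood at 0.27 with shD3 #4 and, called, at 0.69 in deep shD3 #1. ERP29 fell with siD3 #3, from 98.0 ± 5.35 to 57.2 ± 7.12 cpm (-0.78, edgeR adjusted p = 0.00205). In the deep libraries ERO1A, which reoxidises the isomerases, rose from 115 ± 4.09 to 198 ± 6.88 cpm (0.79, edgeR adjusted p = 1.33e-09), and TXNDC5 fell from 15.1 ± 0.694 to 3.26 ± 2.12 cpm (-2.17, edgeR adjusted p = 2.56e-06). The same shRNA in the first table gave 0.51 for ERO1A, under 1.5-fold, and -0.17 for TXNDC5 with groups that overlapped (edgeR adjusted p = 0.523). TXNDC5 overlaps the readthrough gene BLOC1S5-TXNDC5 on the same strand, so its counts are uncertain.

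Among the 14 HSP70 co-chaperones and related factors, HYOU1, the large HSP70 that releases nucleotide from BiP, fell with shD3 #1 from 199 ± 11.2 to 109 ± 8.43 cpm (log2 fold change -0.85, edgeR adjusted p = 3.86e-08) and stood at 0.23 with shD3 #4 and, under 1.5-fold, at -0.38 in deep shD3 #1. MANF, a secreted factor that binds BiP, was called lower in 3 comparisons, with -0.74 in shD3 #1, -0.63 in siD3 #3 and -0.93 in deep shD3 #1, against -0.01 in shD3 #4. Its relative CDNF was called higher with shD3 #4 (0.79, edgeR adjusted p = 0.0233) and in deep shD3 #1 (0.69, edgeR adjusted p = 0.00296), at levels of only 0.795 to 3.26 cpm. CNPY4 fell with siD3 #3 (-1.16, edgeR adjusted p = 0.00107) and stood at 0.40 with shD3 #4.

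Of the prolyl isomerases, FKBP7 and FKBP14 moved in opposite directions with shD3 #1 in both tables, FKBP7 by 0.99 and 0.90 and FKBP14 by -0.94 and -0.61 on the log2 scale. With shD3 #4 the 6 tested prolyl isomerases had log2 fold changes of 0.21 to 0.49 (median 0.40). Of the translocation and signal peptidase genes, SPCS2 fell with siD3 #3 (-0.70, edgeR adjusted p = 0.0258) and SEC61G in deep shD3 #1 (-0.78, edgeR adjusted p = 0.00814), both at under 10 cpm. The deep groups of SEC61G overlapped, and the first table gave -0.08 with the same shRNA (edgeR adjusted p = 0.404). The 11 tested genes of ER-associated degradation had log2 fold changes of -0.35 to 0.53 over the 4 comparisons, all under 1.5-fold.

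The sensors and factors of the unfolded protein response, the signalling that raises ER chaperones, gave no common direction over the knockdowns. With shD3 #1, 1 was higher and 4 lower of 10 (50% called, against 29.1% of all genes). In the deep libraries 0 were higher and 2 lower of 9 (22.2%, against 29.1%). With siD3 #3, 3 were higher and 0 lower of 10 (30%, against 22.0%), and with shD3 #4 1 and 0 (10%, against 12.5%). XBP1, the factor made by IRE1 splicing, was the 1 listed gene called both ways, from 180 ± 2.78 to 102 ± 5.16 cpm with shD3 #1 (log2 fold change -0.80, edgeR adjusted p = 1.63e-08) and from 151 ± 12.7 to 296 ± 9.54 cpm with shD3 #4 (0.99, edgeR adjusted p = 1.58e-11). In deep shD3 #1 it stood at 0.15. DDIT3 (CHOP), a target of the PERK branch, rose with siD3 #3, from 6.43 ± 1.66 (n = 2) to 17.2 ± 2.46 cpm (n = 3, log2 fold change 1.41, edgeR adjusted p = 0.00169), against 0.29 and -0.04 with shD3 #1 and shD3 #4. PPP1R15A (GADD34), which reverses the PERK signal, rose with shD3 #1 from 28.3 ± 0.685 to 58.0 ± 0.960 cpm (1.05, edgeR adjusted p = 1.62e-09) and with siD3 #3 (1.32, edgeR adjusted p = 0.00292). With shD3 #4 it stood at -0.28 (edgeR adjusted p = 0.00793), lower in all 3 libraries than in the controls but under 1.5-fold, and in deep shD3 #1 at 0.19. MBTPS2, the protease that completes ATF6 cleavage, fell with shD3 #1 in both tables (-1.25 and -1.23). DDIT3 and MBTPS2 overlap another gene on the same strand, so their counts are uncertain.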

How the data were processed

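RNA of A549 cells depleted of rRNA was sequenced in 23 libraries with a directional kit. The authors trimmed reads (Trimmomatic 0.40, per the labels), aligned them to GRCh38.p14 with STAR 2.7.10a and deposited counts of reads per gene, without normalisation, in 2 tables of 61806 genes (Ensembl identifiers, of which 61757 had a symbol in GENCODE release 44) and 42901 genes (symbols). The strand setting of the counts is not given in the sources used here. CANX, HSP90B1, PDIA3 and PDIA6 overlap a protein-coding gene on the opposite strand, and without strand their reads cannot be told apart.

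Each knockdown was compared with its own control in edgeR 4.0.16 (R 4.3.3) by the quasi-likelihood test, with TMM and filterByExpr, and with Benjamini-Hochberg adjustment over all genes tested. A gene was called at an adjusted p under 0.05 and at least 1.5-fold. Differences between knockdowns were contrasts in 1 model of all 17 libraries of the first table. Levels are TMM cpm, scaled over each table separately. The p-values measure the spread between libraries labelled as biological replicates, and no pair of libraries was identical. The test was checked before use on simulated data with few changed genes and the same spread for every gene. In these data a far larger share of genes changed, which that check did not cover. Alternatives were DESeq2 1.42.0, its size factors, other filters, each library left out, a replicate block, other fold limits and 1 fit of 17 libraries.

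The genes, lists and comparisons were chosen with earlier results of these data known. Named were all 10 genes, THUMPD3, the highest and lowest called gene of each role in each comparison, the 5 genes most like CANX, and its neighbours. A low gene such as DNAJB9, at 234 to 1328 counts, is measured less precisely than CANX, at 4235 to 110028 counts.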

Additional observations from a re-analysis of the deposited data

Results flagged for a closer look

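The effects of the knockdowns differed for 4 of the folding genes, by a test of the difference itself in the model of 17 libraries. Of all genes tested, 25.9% were called between the shRNAs (13.8% lower) and 16.5% between the siRNA and the shRNAs (7.12% lower). Such calls were common among all genes, so these 4 are values of single genes, not a trait of folding genes. The calls of PDIA4 and SDF2L1 were lost when certain single libraries were left out. HSP90B1 differed between the shRNAs by -0.90 on the log2 scale, with all 3 shD3 #1 libraries (492 to 527 cpm) below all of shD3 #4 (812 to 907 cpm). PDIA4 differed between them by -0.62, with 284 to 325 cpm against 395 to 433 cpm. Between the siRNA and the mean of the shRNAs PDIA6 differed by -0.64, with 293 to 342 cpm in siD3 #3 against 448 to 528 cpm in the shRNA knockdowns, and SDF2L1 by -0.60, with 9.25 to 10.5 cpm against 13.0 to 16.2 cpm. In the deep table, which this model did not use, shD3 #1 gave -0.38 for HSP90B1 and -0.11 for PDIA4 against its own control, smaller than the -0.96 and -0.63 of the first table.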

How the results depend on the processing

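No value that passed the test in the main analysis changed sign under any alternative that was run. Values near 0 did, none of them past the threshold: CALR and PDIA4 with shD3 #4, PDIA6 with either shRNA, HSPA5 with shD3 #1 and siD3 #3, and the differences of CALR, DNAJB9, PDIA6 and SDF2L1 between the shRNAs and of HSPA5 between siRNA and shRNAs. The log2 fold change of CANX stayed within -2.43 to -2.37 with shD3 #1, -0.23 to -0.17 with shD3 #4, -0.42 to -0.21 with siD3 #3 and -2.02 to -1.98 in the deep libraries when 1 library was left out. With at least 2-fold required, 0 of the 9 other genes were called in any comparison or difference, so DNAJB9, HSP90B1 and the others rest on changes between 1.5-fold and 2-fold; of the wider list 1 higher and 2 lower remained with shD3 #1, 0 higher with shD3 #4, 2 higher and 1 lower with siD3 #3, and 0 higher and 3 lower in the deep libraries. With the adjusted p alone, 4 of the 9 were higher with shD3 #4, 4 higher and 2 lower in the deep libraries, and 6 were lower in the siRNA difference; of the wider list 26 were higher and 29 lower with shD3 #1, 27 and 4 with shD3 #4, 9 and 18 with siD3 #3, and 29 and 28 in the deep libraries. By the adjusted p alone, 56.5% of all genes passed with shD3 #1, 40.8% with shD3 #4, 33.0% with siD3 #3 and 62.6% in the deep libraries. For the siRNA difference 29.1% of all genes passed. The shares of all genes at 2-fold are not given here, so the 2-fold counts have no such measure beside them. DESeq2 called 1 rather than 2 of the wider list higher with shD3 #4. With at least 10 counts in every library, 1 rather than 2 of the 9 differed between siRNA and shRNAs.

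With 1 library left out, the 9 gave 1 to 2 lower calls with shD3 #1 (1 without shD3 #1 replicate 3) and 2 to 4 with siD3 #3 (2 without siControl replicate 1), and the wider list gave 1 to 2 higher calls with shD3 #4 and 2 to 6 higher with siD3 #3 (2 without siControl replicate 2). The shRNA difference gave 1 to 2 lower calls and the siRNA difference 1 to 2. SDF2L1 lost its siRNA difference without siControl replicate 1, siD3 #3 replicate 2, sh1Control replicate 1, shD3 #1 replicates 1 or 2, or sh4Control replicates 1 or 3. The wider list's 2 calls with shD3 #4 became 1 without sh4Control replicates 1 or 2 or shD3 #4 replicates 1 or 3. The cause was not tested.

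The replicate numbers did not pair the libraries: deviations from the group means correlated at -0.11 to 0.14 between libraries of the same number. With the replicate number as a block, the 9 genes gave the same counts, 1 higher and 2 lower with shD3 #1, 1 higher with shD3 #4, and 1 higher and 4 lower with siD3 #3.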

Other observations

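HSPA5 differed more between the tables than between any groups within them. It stood at 177 ± 7.97 cpm in sh1Control of the first table and at 672 ± 32.4 cpm in deep sh1Control (n = 3 each), a ratio of 3.80, where the median ratio over 6155 genes with at least 20 cpm in both was 1.08, with a range from the 5th to the 95th percentile of 0.596 to 2.63. Of these genes 112 (1.82%) had a ratio at or above that of HSPA5. PDIA3 had a ratio of 1.54 and SDF2L1 of 1.31, while CANX, CALR, HSP90B1 and PDIA6 had ratios of 0.806 to 0.895. EDEM2 had 90.0 cpm in sh1Control of the first table and 0.855 cpm in the deep one. The tables name genes differently and were normalised separately, so these ratios were not tested.

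The genes whose level followed CANX most closely in the first table kept the order of size only in part in the deep libraries: MAN2A1 had the lowest log2 fold change of the 5 in both tables (-1.49 and -1.05) and NBAS the highest (-0.98 and -0.57). HNRNPH1, which lies beside CANX, stood at -0.60 with shD3 #1, -0.23 with shD3 #4, -0.46 with siD3 #3 and -0.54 in the deep libraries.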
